A study of Mus musculus with 16 samples.

Results

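Beta tubulins were examined in mouse liver, as 5 genes (Tubb1, Tubb2a, Tubb2b, Tubb5 and Tubb6) of the 19938 that the array platform measures with a probe set naming that gene alone. They were chosen by symbol, with earlier results of these data known, so counts of them set beside all genes are no independent support. Each has a single such probe set: 10479154 for Tubb1, 10408610 for Tubb2a, 10408613 for Tubb2b, 10450605 for Tubb5 and 10456400 for Tubb6. Tubb3 and Tubb4a also have a probe set of their own, were too dim for the main tests and are given apart. Livers came from 129 mice of 4 genotypes with 4 arrays each, namely Rassf1a-/- Sav1+/-, Rassf1a-/-, Sav1+/- and wild type. Rassf1a is the long isoform of a tumour suppressor gene, and Sav1 encodes the scaffold of the Hippo kinases. How the alleles were made, and the age and any treatment of the mice, are unknown here, and the labels give no sex. Nothing says whether the arrays of a genotype come from separate animals. P-values therefore measure the spread between these arrays, which may be technical. The study's title asks how Rassf1a bears on beta tubulin expression.

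Microtubules are hollow polymers of alpha and beta tubulin heterodimers. In hepatocytes they carry secretory vesicles to the blood side and the bile side of the cell. Mammals have several beta tubulin genes, whose proteins differ mostly in the acidic tail at the C-terminus. Cells also sense free tubulin and degrade tubulin mRNA while it is being translated when free dimer is plentiful, and the RASSF1A protein binds microtubules and stabilises them.

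Values are log2 signals per probe set as the authors deposited them, so a difference of 1 is a 2-fold change. Signals of different probe sets have no common scale, and levels are therefore ordered only within a gene. Array medians over all probe sets lay between 7.20 and 7.51. Signal of Y-linked genes averaged 8.87 or more in 5 arrays (2 Rassf1a-/- Sav1+/-, 1 Rassf1a-/- and 2 Sav1+/-) and 4.17 or less in the other 11, wild type included, so the arrays do not share a sex. Xist was 2.12 to 4.31 in those 5 and 10.34 to 11.47 in the other 11. All wild-type arrays thus had a female pattern, and no comparison with wild type is balanced for sex. Sav1 averaged 7.65 ± 0.27 in Rassf1a-/- Sav1+/-, 8.61 ± 0.14 in Rassf1a-/-, 7.64 ± 0.37 in Sav1+/- and 8.53 ± 0.11 in wild-type livers (SD, n = 4). Rassf1 averaged 7.56, 7.20, 7.52 and 7.44 in the same genotypes, by a probe set annotated to the gene and not to its Rassf1a isoform, so it does not check the deletion. The hepatocyte marker Alb lay between 13.60 and 14.02 in all 16 arrays. In whole liver, a change in the number of cells of a type and a change in RNA per cell cannot be told apart.

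Tubb2a, an isotype best known from neurons, stood highest in livers without Rassf1a. Its log2 signal was 10.08, 10.91, 10.92 and 10.34 in Rassf1a-/- Sav1+/- and 11.00, 10.70, 10.68 and 11.18 in Rassf1a-/- livers, against 8.89, 8.94, 9.0 and 9.15 in Sav1+/- and 8.15, 9.79, 8.96 and 8.70 in wild-type livers. All 8 arrays without Rassf1a lay above all 8 others, with a gap between 10.08 and 9.79. Tubb2b, which lies beside Tubb2a on chromosome 13 with only the non-coding gene 4930447K03Rik between them in the RefSeq table, gave 8.22, 8.89, 8.63 and 8.36 in Rassf1a-/- Sav1+/- and 8.60, 8.49, 8.67 and 8.77 in Rassf1a-/- livers, against 6.66, 7.15, 7.25 and 7.17 in Sav1+/- and 5.91, 7.73, 7.04 and 6.45 in wild-type livers. Its groups with and without Rassf1a did not overlap either. Tubb2b reached the signal required for testing in all 8 arrays without Rassf1a and in only 1 of the other 8 (wild-type replicate 2), so it passed that filter through the groups where it is high, and the size of its change is uncertain. Its calls, ranks and place in the counts below carry the same limit and are no support of their own. The sequences of Tubb2a and Tubb2b are nearly the same, and how far each probe set also reads the other transcript was not tested.

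Tubb1, the beta tubulin of platelets and megakaryocytes, was 8.93, 8.88, 9.08 and 8.99 in Rassf1a-/- Sav1+/- and 8.99, 9.06, 9.11 and 9.26 in Rassf1a-/- livers, against 8.09, 8.22, 8.43 and 8.16 in Sav1+/- and 7.75, 8.51, 8.46 and 7.79 in wild-type livers. The lowest array without Rassf1a (8.88) lay above the highest of the others (8.51). Tubb5, the broadly expressed isotype, was 11.54, 11.41, 11.26 and 11.17 in Rassf1a-/- Sav1+/- and 11.33, 11.56, 11.15 and 11.55 in Rassf1a-/- livers, against 10.61, 11.02, 10.84 and 10.91 in Sav1+/- and 10.53, 10.57, 10.82 and 10.51 in wild-type livers. The groups again did not overlap, though they came within 11.15 and 11.02 of each other. Tubb6, another widely expressed isotype, was 9.05, 8.90, 8.95 and 9.16 in Rassf1a-/- Sav1+/- and 8.93, 9.06, 8.98 and 9.65 in Rassf1a-/- livers, against 8.44, 8.34, 8.27 and 8.73 in Sav1+/- and 8.37, 9.01, 8.74 and 8.36 in wild-type livers. Its groups overlapped through wild-type replicate 2, which was also the highest wild-type array for Tubb1, Tubb2a and Tubb2b.

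**Figure D1:**
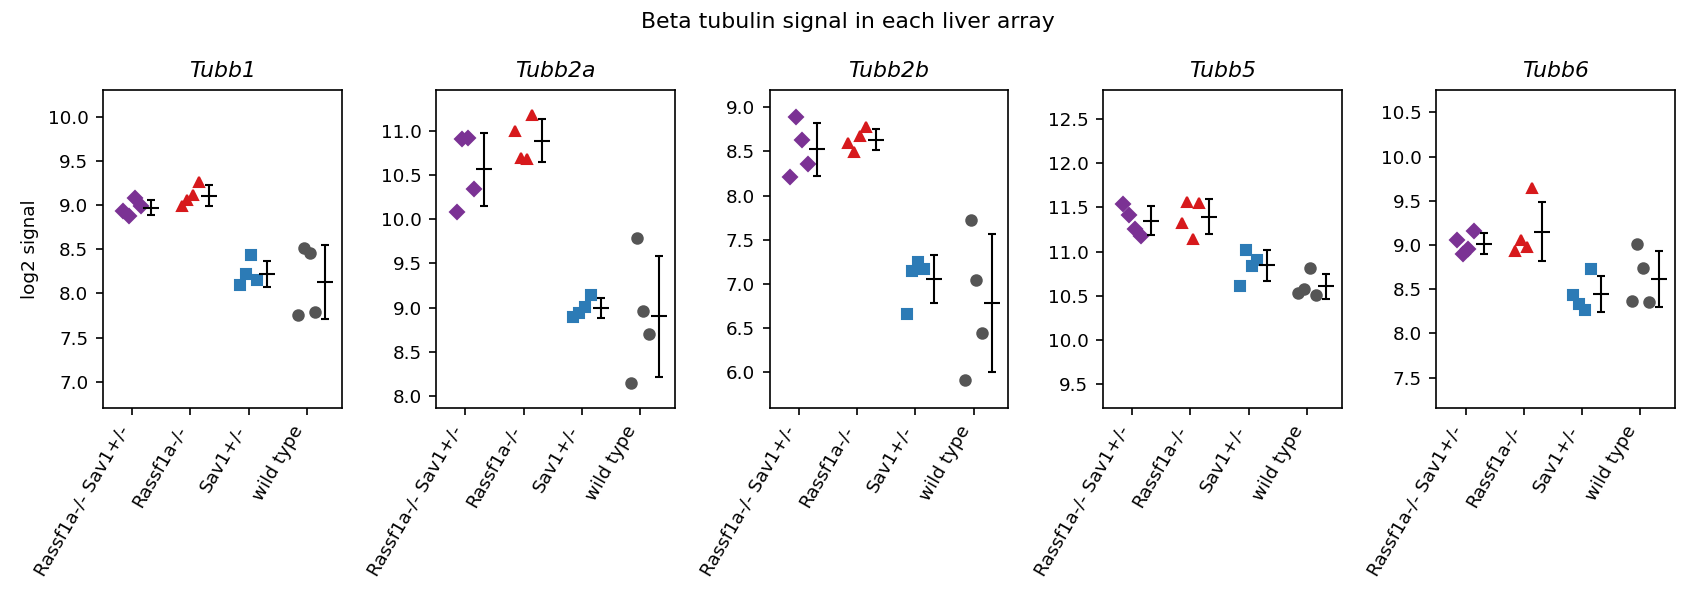
Log2 signal (vertical axis, the same span of log2 units in every panel) of each beta tubulin gene in the 4 arrays of each genotype; the bar beside each group is the mean with its SD. Arrays without Rassf1a (diamonds and triangles) lie above all others for Tubb1, Tubb2a, Tubb2b and Tubb5, and Tubb6 overlaps at 9.01 in 1 wild-type array.

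The stretches of 250 bases before the start of transcription are shown for 3 genes that were higher without Rassf1a, to let their promoters be compared. None is shown for Tubb2b or Tubb6. They are the sense strand, 5′ to 3′, from RefSeq (GRCm38.p6): chr13:34078009-34078258 (minus strand) for Tubb2a, chr17:35838302-35838551 (minus strand) for Tubb5 and chr2:174450345-174450594 (plus strand) for Tubb1. Capitals mark matches to any of 8 motifs searched: the E-box CACGTG bound by BMAL1 and CLOCK, the D-box TTATGNAA, the ROR element AGGTCA, the cyclic AMP response element TGACGTCA, the TEAD element GGAATG, the CCAAT box CCAAT and the GC box GGGCGG on both strands, and the TATA box TATAAA on the sense strand.
Tubb2a: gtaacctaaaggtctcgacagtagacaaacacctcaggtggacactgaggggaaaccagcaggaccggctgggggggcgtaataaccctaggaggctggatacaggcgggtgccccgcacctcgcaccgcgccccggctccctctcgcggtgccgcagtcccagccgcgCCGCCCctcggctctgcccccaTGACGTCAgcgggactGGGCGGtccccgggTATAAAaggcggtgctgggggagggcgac
Tubb5: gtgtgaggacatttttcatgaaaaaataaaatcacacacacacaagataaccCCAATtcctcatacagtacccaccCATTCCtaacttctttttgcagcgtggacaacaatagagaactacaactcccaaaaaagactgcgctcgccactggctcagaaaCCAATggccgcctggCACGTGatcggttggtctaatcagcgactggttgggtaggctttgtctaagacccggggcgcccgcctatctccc
Tubb1: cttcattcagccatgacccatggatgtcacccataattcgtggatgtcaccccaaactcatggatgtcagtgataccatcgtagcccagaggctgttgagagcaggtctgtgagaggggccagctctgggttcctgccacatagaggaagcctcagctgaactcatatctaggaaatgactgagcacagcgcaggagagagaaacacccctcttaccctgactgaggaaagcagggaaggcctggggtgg
Tubb2a held TATAAA from 29 bases before the start, the cyclic AMP response element from 59 bases and GC boxes from 43 and 81 bases. Among all 32851 promoter stretches of this length in the table, 7.59% held the TATA box, 1.55% the cyclic AMP response element and 32.7% a GC box. Tubb5 held the E-box from 75 bases before the start (6.02% of promoters), a TEAD element on the other strand from 174 bases (12.6%) and CCAAT from 90 and 198 bases (33.8%). The D-box is held by 3.07% and the ROR element by 14.0% of promoters, and none of the 8 motifs is in the stretch of Tubb1. The stretches of Tubb2a and Tubb5 had no searched motif in common.

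Loss of Rassf1a was tested in pairs of genotypes that have no array in common. Both pairs draw on a single estimate of spread, from limma fitted to all 16 arrays and 13152 genes, and adjusted p-values are Benjamini-Hochberg values over those genes, with a gene called under 0.05. Where both Sav1 copies were present (Rassf1a-/- against wild type), Tubb2a was 3.97-fold higher (95% interval 2.68 to 5.89), Tubb2b 3.61-fold (2.39 to 5.44), Tubb1 1.97-fold (1.54 to 2.51) and Tubb5 1.73-fold (1.41 to 2.11). These 4 of 5 beta tubulins were called higher, against 0.433% of all genes, and their arrays lay wholly above wild type, as did those of 6.55% of all genes. Because the 5 were chosen with earlier results of these data known, this contrast is descriptive. Tubb6 was 1.45 times its wild-type level (1.11 to 1.88) without passing (adjusted p = 0.266). When the 5 arrays of high Y-linked signal were dropped, Tubb2a (+2.06) and Tubb2b (+1.90) kept their calls, while Tubb1 (+0.99, adjusted p = 0.0627) and Tubb5 (+0.73, adjusted p = 0.0840) lost theirs.

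On the Sav1+/- background (Rassf1a-/- Sav1+/- against Sav1+/-), Tubb2a was 2.97-fold higher (log2 +1.57 ± 0.27, SE; adjusted p = 0.0108), Tubb2b 2.77-fold (+1.47 ± 0.28; adjusted p = 0.0199) and Tubb1 1.68-fold (+0.74 ± 0.17; adjusted p = 0.0466). These 3 of 5 were called, against 0.669% of all genes called higher. Tubb5 (+0.50 ± 0.14, adjusted p = 0.0954) and Tubb6 (+0.57 ± 0.18, adjusted p = 0.137) did not pass. The arrays of all 5 genes lay wholly above Sav1+/-, as did those of 5.03% of all genes. Calls here depended on the fit and on single arrays. With only these 2 genotypes fitted, adjusted p was 0.0511 for Tubb2a and Tubb2b and 0.157 for Tubb1, and with array weights it was 0.0641 for Tubb2a, 0.0884 for Tubb2b and 0.116 for Tubb1, with 5 of 5 at an unadjusted p under 0.05 by limma in both. Calls over all 13152 genes, in either direction, also fell, from 110 to 1 with only these genotypes and to 55 with array weights. Without Rassf1a-/- Sav1+/- replicate 2, limma called 0 of 5 (5 at an unadjusted p under 0.05), with Tubb2a at +1.45 (adjusted p = 0.0572). That fit called 27 of all 13068 genes. Tubb2b also failed without Sav1+/- replicate 1 (+1.33, adjusted p = 0.0606) and Rassf1a-/- Sav1+/- replicate 3 (+1.43, adjusted p = 0.0661), and Tubb1 passed in only 5 of the 16 fits that left out 1 array, those without a wild-type array or without Sav1+/- replicate 2. When the arrays of high Y-linked signal were dropped none passed by limma (4 at an unadjusted p under 0.05), with Tubb2a at +1.71, Tubb2b at +1.59 and Tubb1 at +0.88. In that fit, with fewer arrays in both genotypes, limma called 0 of all 12674 genes. The share of all genes at an unadjusted p under 0.05 was not computed for these refits, so the counts at that p do not offset the lost calls. Tubb5 passed when Sav1+/- replicate 2 was left out (+0.56, adjusted p = 0.0433).

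Averaged over both Sav1 states, with 8 arrays without Rassf1a and 8 with it, all 5 tested beta tubulins were called higher, against 1.76% of all genes. Tubb3 and Tubb4a, too dim to pass the filter, are outside this count. Tubb2b counts here with the limit given above, while Tubb1, Tubb2a, Tubb5 and Tubb6 reached the filter level in all arrays. Tubb2a rose by 1.78 ± 0.19 on the log2 scale (SE; 3.43-fold, adjusted p = 3.81e-05) and Tubb2b by 1.66 ± 0.20 (3.16-fold, adjusted p = 0.000121). Tubb1 rose by 0.86 ± 0.12 (1.82-fold, adjusted p = 0.000465), Tubb5 by 0.65 ± 0.10 (1.56-fold, adjusted p = 0.00118) and Tubb6 by 0.55 ± 0.13 (1.47-fold, adjusted p = 0.0267). By unadjusted p, Tubb2a ranked 15, Tubb2b 23, Tubb1 37, Tubb5 51 and Tubb6 220 among the 13152 genes. Non-overlap of all 8 with all 8 arrays, found for Tubb1, Tubb2a, Tubb2b and Tubb5, was met upwards by 0.601% of all genes. The median change of the 5 genes was +0.86, and that of all genes +0.03. With the 5 arrays of high Y-linked signal left out, the changes were +1.88 for Tubb2a, +1.74 for Tubb2b, +0.94 for Tubb1, +0.57 for Tubb5 and +0.62 for Tubb6, and the last 2 no longer passed (adjusted p = 0.0896 and 0.151). Tubb6 also failed without wild-type replicate 1 or 4, Rassf1a-/- replicate 4, Sav1+/- replicate 3 or Rassf1a-/- Sav1+/- replicate 1 or 4 (adjusted p of 0.0532 to 0.0641).

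**Figure D2:**
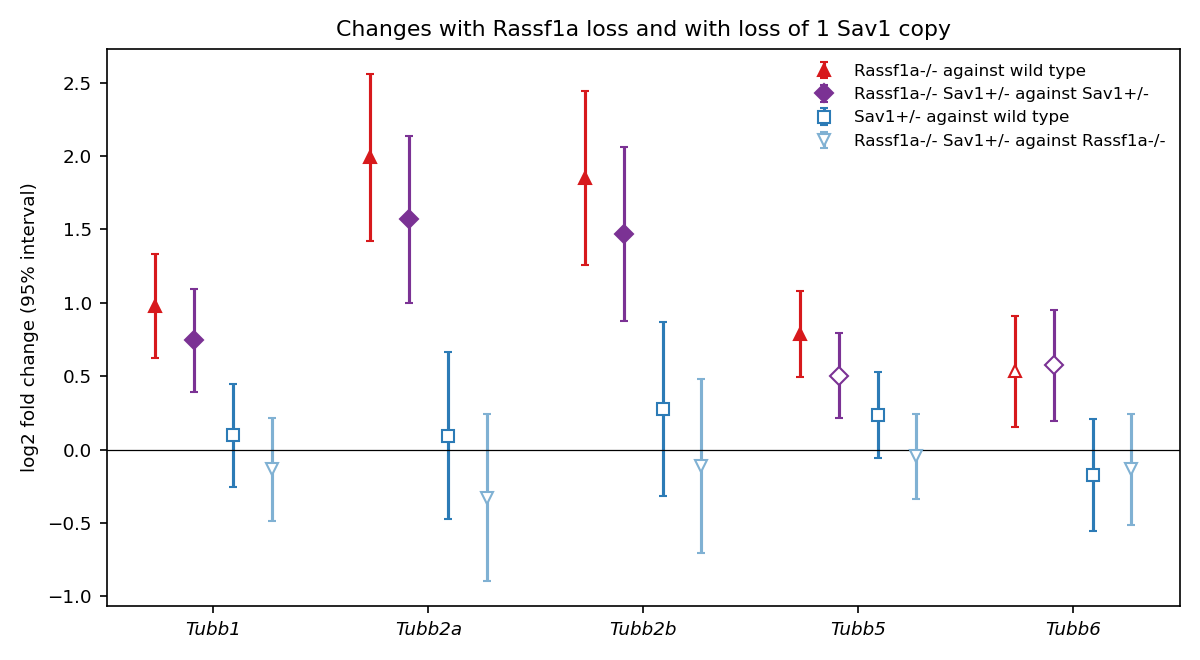
Log2 fold changes with 95% intervals (vertical axis) of each beta tubulin gene in 4 comparisons; filled symbols passed at an adjusted p under 0.05 and open ones did not. Changes with Rassf1a loss run from +0.50 (Tubb5) to +1.99 (Tubb2a), and those with loss of 1 Sav1 copy from -0.33 to +0.27 with intervals that all include 0.

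Rassf1a-/- Sav1+/- livers set against wild type, the same wild-type arrays as above, gave 4 of 5 beta tubulins called higher, against 0.335% of all genes. Folds were 3.17 for Tubb2a (95% interval 2.14 to 4.69), 3.34 for Tubb2b (2.22 to 5.04), 1.79 for Tubb1 (1.40 to 2.29) and 1.67 for Tubb5 (1.37 to 2.05), and Tubb6 was 1.32 (1.01 to 1.71) without passing. Tubb1 lost its call without wild-type replicate 1 or 4 or replicate 1, 2 or 3 of the Rassf1a-/- Sav1+/- livers (adjusted p of 0.0594 to 0.0903). Tubb5 lost it without wild-type replicate 1, 2 or 4 or Rassf1a-/- Sav1+/- replicate 1 or 2 (0.0512 to 0.0700). When the 5 arrays of high Y-linked signal were dropped, none of the 5 passed by limma, while Tubb2a stood at +1.73 and Tubb2b at +1.71. At an unadjusted p under 0.05 by limma, 4 of 5 passed without those arrays, and the share of all genes at that p was not computed for that fit. Over all genes, 6 of 12674 were called in that fit.

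Loss of 1 Sav1 copy left each beta tubulin within an interval that included no change. In Sav1+/- against wild-type livers, limma called 0 of 5 (0 at an unadjusted p under 0.05), against 0.0% of all genes called and 9.15% at an unadjusted p under 0.05. The 95% intervals of the log2 change were -0.47 to +0.66 for Tubb2a, -0.32 to +0.87 for Tubb2b, -0.26 to +0.45 for Tubb1, -0.05 to +0.53 for Tubb5 and -0.55 to +0.20 for Tubb6. Among Rassf1a-/- livers, loss of the Sav1 copy gave differences of -0.33 for Tubb2a, -0.11 for Tubb2b, -0.14 for Tubb1, -0.05 for Tubb5 and -0.14 for Tubb6, with 0 of 5 called and 0 at an unadjusted p under 0.05, against 0.0076% of all genes called and 14.7% at that unadjusted p. The averaged Sav1 effect on the log2 scale had intervals of -0.52 to +0.29 for Tubb2a, -0.34 to +0.50 for Tubb2b, -0.27 to +0.23 for Tubb1, -0.11 to +0.30 for Tubb5 and -0.42 to +0.11 for Tubb6. None of the 5 was called, against 0.0228% of all genes, and by limma 0 had an unadjusted p under 0.05, against 14.8%. Intervals this wide do not show that the Sav1 copy is without effect.

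Whether the 2 alterations combined additively on the log2 scale was tested as an interaction. Its estimates were -0.42 (95% interval -1.22 to +0.38) for Tubb2a, -0.38 (-1.22 to +0.45) for Tubb2b, -0.28 (-0.70 to +0.13) for Tubb5, -0.23 (-0.73 to +0.27) for Tubb1 and +0.04 (-0.50 to +0.58) for Tubb6. Limma called 0 of 5, against 0.0% of all genes, and 0 of 5 had an unadjusted p under 0.05, against 9.4%. In mean level, Tubb1, Tubb2a, Tubb2b and Tubb5 followed the order Rassf1a-/-, Rassf1a-/- Sav1+/-, Sav1+/-, wild type, and Tubb6 had wild type above Sav1+/-. In each gene the upper pair, Rassf1a-/- and Rassf1a-/- Sav1+/-, did not differ beyond its spread, and nor did the lower pair. Between the pairs, neighbours differed past the threshold for Tubb1, Tubb2a and Tubb2b (Rassf1a-/- Sav1+/- against Sav1+/-).

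Tubb3 and Tubb4a, beta tubulin genes best known from neurons, stayed dim. Tubb3 averaged 6.82 ± 0.35 in Rassf1a-/- Sav1+/-, 6.94 ± 0.18 in Rassf1a-/-, 7.06 ± 0.44 in Sav1+/- and 6.90 ± 0.23 in wild-type livers (SD, n = 4), and Tubb4a averaged 6.66 ± 0.15, 6.70 ± 0.08, 6.95 ± 0.34 and 6.66 ± 0.15 in the same genotypes. Each reached the level of the filter (7.16 to 7.44 over the arrays) in only 1 of 16 arrays. With no filter, the averaged Rassf1a change was -0.10 ± 0.15 for Tubb3 and -0.13 ± 0.11 for Tubb4a (SE; adjusted p = 0.856 and 0.722).

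Genes of a list count as measured if they passed the filter. It was passed by 8 of the 10 other tubulins with a probe set of their own. Among the other tubulins, 1 of 8 measured genes was called higher and none lower for the averaged Rassf1a effect, with 1.76% of all genes called higher. Their median change was +0.14, beside +0.03 for all genes. The called gene, Tuba4a, encodes an alpha tubulin made without the C-terminal tyrosine that other alpha tubulins carry. Its log2 signal was 12.35, 12.56, 12.32 and 12.27 in Rassf1a-/- Sav1+/- and 12.35, 12.54, 11.96 and 12.59 in Rassf1a-/- livers, against 11.58, 11.62, 11.91 and 12.00 in Sav1+/- and 11.53, 12.19, 11.94 and 11.87 in wild-type livers, a rise of 0.54 ± 0.12 (SE, adjusted p = 0.0205). The groups overlapped through Rassf1a-/- replicate 3.

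Genes that fold tubulin or control its mRNA (cofactors, prefoldin, the CCT chaperonin and the autoregulation factors Scaper and Cnot11) had by limma 0 of 25 measured called for the averaged effect, 5 of 25 at an unadjusted p under 0.05 and a median of +0.09. Over all genes 2.23% were called in either direction and 15.3% had an unadjusted p under 0.05, so a count of 0 in a list of this size is no result about the list. Of 20 measured enzymes that modify tubulin, 1 was called higher, against 1.76% of all genes, which is no result about the list. The called enzyme was Ttll12, of the tubulin tyrosine ligase-like family, with 8.74, 8.78, 8.49 and 8.91 in Rassf1a-/- Sav1+/- and 8.83, 8.91, 8.47 and 9.10 in Rassf1a-/- livers, against 7.34, 7.92, 7.67 and 8.23 in Sav1+/- and 7.94, 8.19, 8.03 and 7.99 in wild-type livers. Its groups did not overlap, and it rose by 0.87 ± 0.13 (SE, adjusted p = 0.000819). Of 27 measured microtubule-associated and severing proteins, 1 was called higher, which at the same share of all genes is again no result about the list. The called gene was Map1s, whose protein is known to bind RASSF1A and microtubules. It rose by 0.51 ± 0.09 (SE, adjusted p = 0.0073). Its signals were 7.13 to 7.55 without Rassf1a and 6.58 to 7.16 with it. It reached the filter level in 3 Rassf1a-/- Sav1+/- and 1 Rassf1a-/- arrays and in 0 of the 8 others, so it was tested only through the groups where it is high, and the size of its change is uncertain. The groups overlapped through wild-type replicate 1. In single comparisons, Ttll12 alone of these lists was called in Rassf1a-/- against wild type (+0.79 ± 0.18, adjusted p = 0.0491), Ttll12 (+0.94 ± 0.18, adjusted p = 0.0187) and Map1s (+0.67 ± 0.13, adjusted p = 0.0266) in Rassf1a-/- Sav1+/- against Sav1+/-, and none in the other pairs of genotypes. The median change was +0.08 for the modifying enzymes and +0.11 for the associated proteins, beside +0.03 for all genes.

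**Figure D3:**
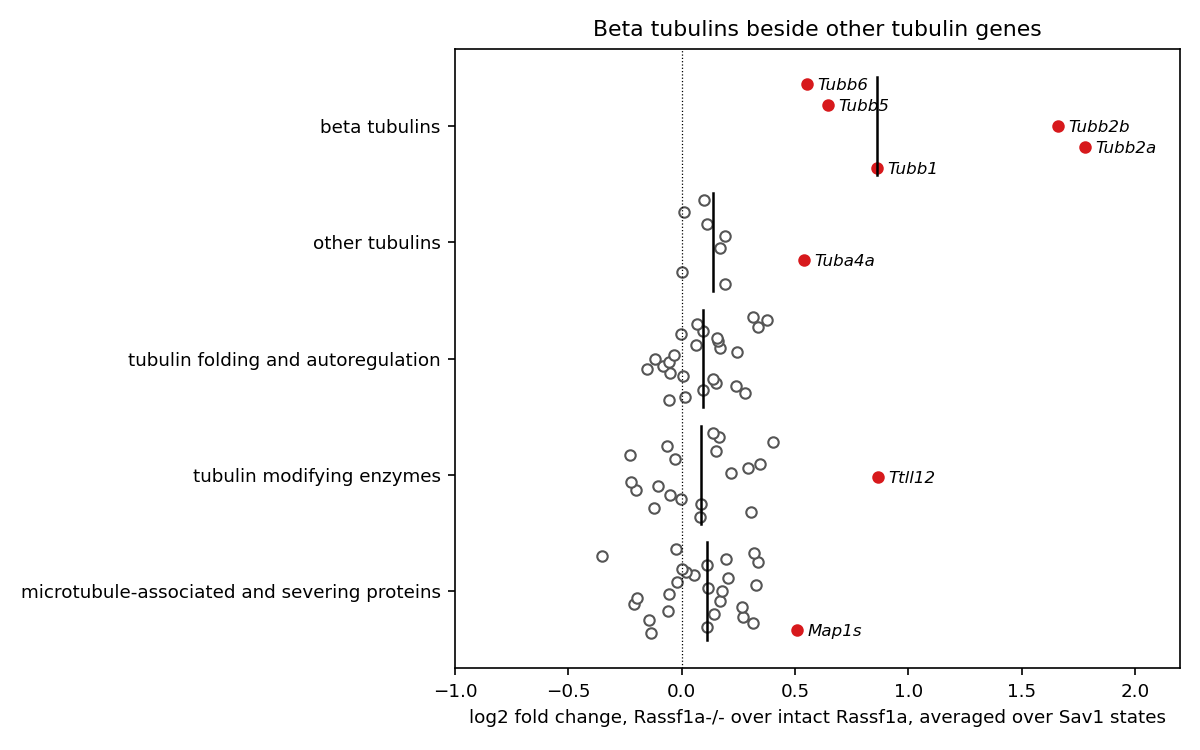
Log2 change with Rassf1a loss averaged over both Sav1 states (horizontal axis) for each measured gene of 5 lists; filled points passed at an adjusted p under 0.05 and vertical bars are list medians. All 5 tested beta tubulins and 1 gene in each of 3 other lists passed, and the folding and autoregulation list held none. Tubb3 and Tubb4a, too dim to be tested, are not shown.

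The pattern over the 16 arrays was compared with that of every other gene, after each gene was scaled to mean 0 and SD 1, by the root-mean-square difference, which is 0 for identical patterns. The arrays share their genotypes, so genes that changed with Rassf1a resemble each other by this measure. Of 13151 other genes, the nearest to Tubb2a was Tubb2b (0.200) and the next Coq8a (0.207), which encodes a factor of coenzyme Q synthesis. The nearest to Tubb2b were Tubb2a (0.200) and Tubb1 (0.260), and the nearest to Tubb1 were Tubb2b (0.260) and Tubb2a (0.323). Tubb5 and Tubb6 had genes other than beta tubulins nearest to them. The nearest to Tubb5 were Mical2 (0.355), which encodes an actin-oxidising enzyme, and Gas7 (0.391), while Tubb1 ranked 25 and Tubb2b 27. The nearest to Tubb6 were Cryab (0.477), a small heat shock protein gene, and Cdk2ap2 (0.497), while Tubb1 ranked 7 and Tubb5 150.

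Variation among arrays of the same genotype was examined through deviations from the genotype mean, with permutation of arrays within genotypes (100000 resamples, two-sided) and adjustment over 15 relations. Tubb2a and Tubb2b deviated together (Pearson r = 0.91, permutation p = 0.000470, adjusted p = 0.00705; Spearman rho = 0.81, adjusted p = 0.0319; 16 arrays), with a positive relation in all 4 genotypes. Wild-type replicates 1 and 2 lay farthest out, at -0.75 and +0.89 for Tubb2a and -0.87 and +0.94 for Tubb2b, and r was 0.73 without the 2 arrays farthest from the median. Among arrays with Rassf1a, Tubb2b reached the filter level only in wild-type replicate 2. How far each probe set reads the other transcript was not tested, so this relation need not be that of separate transcripts. Among the other 9 pairs of beta tubulins none passed. Tubb1 with Tubb2b had r = 0.81 (permutation p = 0.0244, adjusted p = 0.0916) and Tubb2a with Tubb5 had r = 0.09 (permutation p = 0.753, adjusted p = 0.792).

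Clock genes differed between the same groups as the beta tubulins. For the averaged Rassf1a effect 3 clock genes passed upwards and 8 downwards, of 14 measured, against 231 upwards and 62 downwards of all 13152 genes. Arntl, which encodes the clock activator BMAL1, lay between 9.34 and 10.25 in the 8 arrays without Rassf1a and between 5.77 and 7.80 in the others. A clock score was taken as the mean of Arntl and Clock minus the mean of 9 genes chosen as opposite in phase (Per1, Per2, Per3, Nr1d1, Nr1d2, Dbp, Tef, Hlf and Ciart). It was 0.36 to 2.22 in Rassf1a-/- Sav1+/- and 1.62 to 2.10 in Rassf1a-/- livers, against -2.72 to -1.43 in Sav1+/- and -2.89 to -1.34 in wild-type livers. Of these 9, Nr1d1 went the other way, called higher in Rassf1a-/- Sav1+/- against wild type (+0.90 ± 0.19, SE, adjusted p = 0.0363) and +0.40 ± 0.14 for the averaged effect (adjusted p = 0.136). Because the score does not overlap between arrays without and with Rassf1a, the parts of clock state and genotype in the beta tubulin differences cannot be told apart.

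Within genotypes, deviations of Tubb2a went with those of the clock score at r = 0.69 (permutation p = 0.0242, adjusted p = 0.0916) and rho = 0.78 (permutation p = 0.00797, adjusted p = 0.0413). For Tubb2b, r was 0.69 (permutation p = 0.00806, adjusted p = 0.0604) and rho 0.73 (permutation p = 0.00826, adjusted p = 0.0413). Both thus passed by rank and not by Pearson's r, and Tubb2b carries the limit given above. Each was positive in all 4 genotypes, and r was 0.71 for Tubb2a and 0.77 for Tubb2b without the 2 arrays farthest from the median of the tubulin. With each array left out, r ran from 0.55 to 0.79 for Tubb2a (adjusted p of 0.0635 to 0.355 by permutation) and from 0.55 to 0.84 for Tubb2b (0.0270 to 0.304), and the only fit that passed was that of Tubb2b without wild-type replicate 1. Tubb5 (r = 0.29), Tubb1 (r = 0.40) and Tubb6 (r = 0.07) had adjusted p of 0.286 to 0.792 by permutation.

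**Figure D4:**
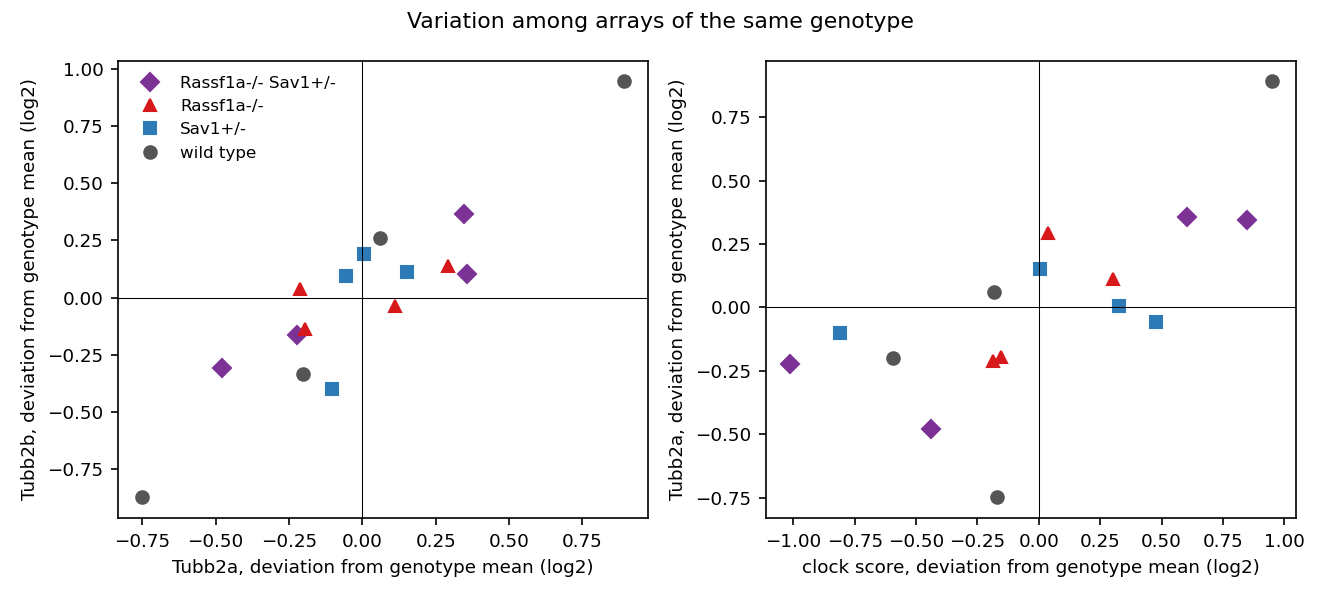
Deviations of single arrays from their genotype mean, in log2 units, for Tubb2b against Tubb2a (left) and for Tubb2a against the clock score (right); each point is 1 of 16 arrays. Wild-type replicates 1 and 2 lie at the lower left and upper right of the left panel, and Pearson's r is 0.91 on the left and 0.69 on the right.

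Markers of platelets, the cells in which Tubb1 is the main beta tubulin, were set beside Tubb1. Of 13 markers 5 passed the filter, and for the averaged Rassf1a effect none was called, 2 were positive and 3 negative, with a median of -0.08. Array means of the 5 lay between 7.90 and 8.05 in Rassf1a-/- Sav1+/- and 7.53 and 8.24 in Rassf1a-/- livers, against 7.68 and 8.76 in Sav1+/- and 7.54 and 7.76 in wild-type livers. The chemokine gene Ppbp was 7.52, 7.16, 7.12 and 8.03 in Rassf1a-/- Sav1+/- and 7.02, 6.86, 8.58 and 9.11 in Rassf1a-/- livers, against 6.34, 9.37, 5.89 and 6.20 in Sav1+/- and 5.77, 6.13, 5.60 and 5.19 in wild-type livers. All its arrays without Rassf1a lay above wild type, without a call (Rassf1a-/- against wild type +2.22 ± 0.62, SE, adjusted p = 0.140). Of all genes, 6.55% had every Rassf1a-/- array above wild type. Ppbp reached the filter level only in some arrays without Rassf1a and in Sav1+/- replicate 2, and in no wild-type array, so the size of its change is uncertain. In that comparison only 1 of the 5 measured markers was positive and 4 were negative, with a median of -0.13. In Rassf1a-/- Sav1+/- against wild type 3 were positive and 2 negative. Pf4, which did not pass the filter, was 6.51 to 7.23 in Rassf1a-/- and 5.29 to 6.14 in wild-type livers. Sav1+/- replicate 2 had the highest Ppbp (9.37) and Pf4 (7.62) of all 16 arrays. Its Tubb1 was 8.22, in a genotype that ran from 8.09 to 8.43. The part of platelets in the Tubb1 difference was not tested. Markers of Kupffer cells, stellate cells, endothelium, cholangiocytes, lymphocytes, neutrophils, nerve, erythroid cells and hepatocytes had 1 to 8 genes measured each and 0 called by limma for the averaged effect (0 to 2 per list at an unadjusted p under 0.05), which at 2.23% of all genes called is no result about them. Of 9 measured cell cycle genes 0 were called and 1 had an unadjusted p under 0.05, with a median of -0.15 beside +0.03 for all genes.

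**Figure D5:**
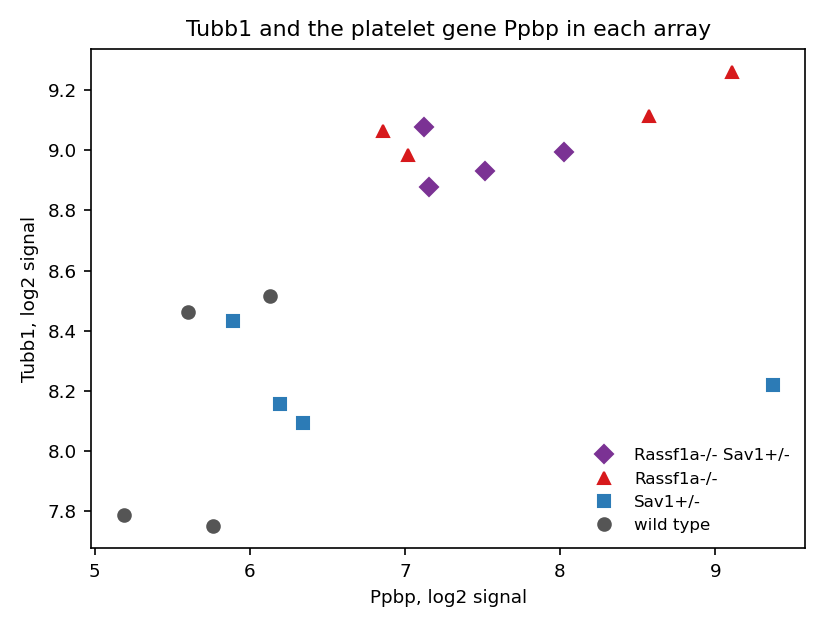
Log2 signal of Tubb1 (vertical axis) against that of the platelet gene Ppbp (horizontal axis), 1 point per array. Sav1+/- replicate 2 lies at the far right (Ppbp 9.37) with a Tubb1 of 8.22. Arrays without Rassf1a lie at a Ppbp of 6.86 or more and wild-type arrays at 6.13 or less, which is below the filter level.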

How the data were processed

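Liver RNA, 1 sample per array, was labelled for Affymetrix whole-transcript arrays and hybridised on 16 of them. The deposited values are log2 signals per probe set. Per the submitters' processing notes the tool was Affymetrix Expression Console, with version, background correction and normalization not given in the sources used here. How many arrays there are limits precision. Of 35556 probe sets, 21789 name a single gene in the platform annotation. Among these, probe sets at or above the 40th percentile of the array in 4 or more arrays were used, and the one with the highest mean stood for its gene, which left 13152 genes. Limma 3.58.1 (R 4.3.3, lmFit and eBayes, two-sided) fitted 4 genotype means with 12 residual degrees of freedom, from which 8 comparisons were read. A gene was called when its Benjamini-Hochberg adjusted p was under 0.05. The fit was tested on simulated data. Of 4 activators listed for the clock score, 2 were measured. Genes named beside the beta tubulins are those called in each list or nearest by p, defining markers, and the 2 most alike to each beta tubulin. Replicates are numbered in order of deposit. Members, lists and tests were chosen with earlier results of these data known. The alternatives were another filter or none, quantile normalization, array weights, a trended robust variance, fits of the compared genotypes alone, Y-linked signal as a covariate or its high arrays left out, and each array left out.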

Additional observations from a re-analysis of the deposited data

Results flagged for a closer look

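Tubb2b was 6.66 in Sav1+/- replicate 1, well below the other 3 Sav1+/- arrays (7.15 to 7.25). Its gap to the nearest of them was 0.833 of the group's range, just above the critical value of Dixon's test. This was 1 of 20 groups examined, and chance flags about 1 in 20.

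A probe set outside the comparisons, 10399419, is annotated to Tubb2a, Tubb2b and the pseudogene Tubb2a-ps2 together. Its log2 signal was 9.78, 9.91, 10.15 and 10.38 in Rassf1a-/- Sav1+/- and 10.14, 10.20, 10.44 and 10.54 in Rassf1a-/- livers, against 9.09, 9.20, 9.23 and 9.26 in Sav1+/- and 8.48, 8.53, 9.18 and 9.49 in wild-type livers, each group in rising order. It was higher by 1.41 in Rassf1a-/- against wild type, by 1.13 in Rassf1a-/- Sav1+/- against wild type and by 0.86 in Rassf1a-/- Sav1+/- against Sav1+/-, each with no overlap and an exact permutation p of 0.0286, the smallest that 4 against 4 arrays can give. These differences are smaller than those of the separate probe sets of Tubb2a (1.99, 1.66 and 1.57) and Tubb2b (1.85, 1.74 and 1.47).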

How the results depend on the processing

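The number of the 5 beta tubulins called in Rassf1a-/- against wild type, 4, was 4 to 4 when each array was left out, and 2 once the 5 arrays of high Y-linked signal were dropped. In Rassf1a-/- Sav1+/- against wild type, 4 became 2 with Y-linked signal as a covariate, 0 without those 5 arrays and 2 to 4 when each array was left out. In Rassf1a-/- Sav1+/- against Sav1+/-, 3 became 0 with only these genotypes fitted, 0 with array weights (5 at an unadjusted p under 0.05 in both), 0 without the 5 arrays and 0 to 4 when each array was left out. The share of all genes at that unadjusted p was not computed for these fits. For the averaged Rassf1a effect, 5 became 3 without the 5 arrays, 4 with no filter (Tubb6, adjusted p = 0.0548) and 4 to 5 when each array was left out. With no filter the counts were also 3 in Rassf1a-/- Sav1+/- against wild type and 2 against Sav1+/-, and the compared genotypes alone gave 3 in the comparison with wild type, each by loss of Tubb1. The cause of these changes was not tested. Where the 5 arrays were dropped, having fewer arrays and a changed balance of sex were not told apart. In these comparisons no beta tubulin changed sign under any setting. Tubb6 passed in Rassf1a-/- against wild type with array weights (adjusted p = 0.0491). The comparisons of Sav1 states and the interaction called 0 beta tubulins by limma under all settings run (at most 2 at an unadjusted p under 0.05), and several small estimates turned sign. Tubb5 in Rassf1a-/- Sav1+/- against Rassf1a-/- was 0.020 after quantile normalization, 0.010 with array weights and -0.13 to 0.011 with each array left out, and Tubb6 there -0.21 to 0.030. In Sav1+/- against wild type, leaving out each array gave -0.029 to 0.22 for Tubb1, -0.15 to 0.39 for Tubb2a and -0.017 to 0.59 for Tubb2b. The averaged Sav1 effect ran over -0.083 to 0.044 for Tubb1, -0.24 to 0.033 for Tubb2a and -0.063 to 0.24 for Tubb2b, which was -0.032 without the 5 arrays. The interaction for Tubb6 was -0.046 with array weights and -0.090 to 0.20 with each array left out. Of the relations within genotypes, 1 passed by Pearson's r with all arrays and 1 to 2 with each array left out, 2 without wild-type replicate 1 or Rassf1a-/- Sav1+/- replicate 2. Tubb6 with the clock score ran from -0.25 to 0.21. Counts over all genes moved more: array weights called 898 genes in Rassf1a-/- against wild type (92 in the fit reported), 1231 in Rassf1a-/- Sav1+/- against wild type (108), 1979 in Rassf1a-/- Sav1+/- against Rassf1a-/- (1), 800 for the averaged Rassf1a effect (293), 1517 for the averaged Sav1 effect (3) and 7 in Sav1+/- against wild type (0), while leaving out the 5 arrays gave 59, 6, 0, 80, 0 and 0 in the same order. Rassf1a-/- Sav1+/- against Sav1+/- had 110, with 478 without Sav1+/- replicate 2, 55 with array weights, 53 with no filter, 185 with the stricter filter and 1 with only its genotypes fitted. It had 27 without Rassf1a-/- Sav1+/- replicate 2 and 0 without the 5 arrays. Each beta tubulin has 1 probe set of its own, so averaging probe sets changed none of their values. No paired analysis was possible because replicates carry no number of their own in the labels. Tubb2b lay below the filter level in 7 of the 8 arrays with Rassf1a, which limits how far the size of its change and its calls can be read.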
